A study of Schizosaccharomyces pombe with 22 samples.

Results

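Transcript levels of the fission yeast Schizosaccharomyces pombe were compared between 2 arrays labelled pst3 repressed and 8 wild-type expression arrays, out of 22 samples in the series. The arrays were taken by their labels, and no measured value entered that choice. Both pst3 arrays held total RNA of a strain named pst3nmt Hu1505, in which pst3 is under an nmt promoter, and were labelled OFF. Replicate 1 was labelled with Cy5 and replicate 2 with Cy3, and 1 channel of each was deposited. The 8 wild-type arrays held wild-type RNA and no pst3nmt construct is named for them. Replicates 1 to 5 of wild type lay on one print of the array, replicates 6 to 8 on another, and the pst3 arrays on a print of their own, so the print and the strain cannot be told apart. Medium, temperature, dose of the repressing agent and time after repression were not given in the sources used here. Whether the replicates were grown as independent cultures is not stated, and the p-values therefore cover only array-to-array spread, which could be purely technical. Codes in the titles of the wild-type arrays recur in pairs, so these 8 may not be separate samples.

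Pst3 belongs to the Sin3 family of large scaffold proteins, which hold together complexes of histone deacetylases and bring them to genes. In fission yeast the relatives Pst1, Pst2 and Pst3 are found with the deacetylase Clr6, and removal of acetyl groups from histones usually lowers transcription nearby. The series title concerns the nucleolus, where RNA polymerase I transcribes ribosomal RNA and where assembly factors cut, modify and fold it into ribosomal subunits. In yeasts, genes for these assembly factors are commonly read most in fast growth and least in starvation, while genes for respiration, nutrient uptake and mating often change the other way. An nmt promoter is shut off by thiamine.

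The pst3 transcript did not show the repression named in the label. Its log2 level, from a single channel after quantile normalization, was 10.22 and 10.08 on the pst3 arrays, against a lowest of 9.77, a median of 10.11 and a highest of 10.95 on wild-type arrays. Both values lay inside the wild-type range, and the difference of means was -0.06 (SE 0.39, limma adjusted p = 0.954). The pst3 arrays are therefore called by their label throughout. The related genes were likewise not called: pst2 gave 10.36 and 8.77 on the pst3 arrays, against 7.97, 9.84 and 10.29 as lowest, median and highest in wild type. The deacetylase gene clr6 gave 9.24 and 10.13 on the pst3 arrays, against 7.79, 10.40 and 10.73 in wild type (difference -0.40, adjusted p = 0.764). The spots named pst1 lay on a plate that was misplaced on the print of the pst3 arrays, which is described below. With its name put back, pst1 gave 9.86 and 9.59 on the pst3 arrays, against 7.75, 9.81 and 10.03 in wild type (difference 0.51, adjusted p = 0.692).

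The arrays differed in brightness. Median net signal, the signal less its local background, was 1548 and 3740 on the pst3 arrays and 405.6 to 3856 on wild-type arrays. Within wild-type replicates 1 to 5, median background was 485 on replicate 1 and 0 on replicates 2 to 5. The 95th percentile of empty spots was 844.7 on replicate 1 and 4.5 on replicate 2 of the pst3 arrays, against 0 to 3388 on wild-type arrays. Of the genes tested, 1077 did not exceed it on replicate 1 and 25 on replicate 2. On replicate 2 the limit says little, because Escherichia coli control probes reached a median of 954.5 there and 333 genes lay below that value. The pst3 arrays ranked genes alike (Spearman correlation 0.856 across genes), and their correlation with single wild-type arrays was 0.421 to 0.664, against 0.459 to 0.941 between wild-type arrays. These are descriptions across genes that share arrays and probes.

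Of 4716 genes present on all arrays, 4432 were tested and 284 were left out because their names lay on misplaced plates. limma with Benjamini-Hochberg adjustment at 0.05 called 383 genes (8.64%), of which 188 were higher (4.24%) and 195 lower (4.4%) on the pst3 arrays. The median difference over all genes tested was -0.02. Tested against wild-type replicates 1 to 5 and 6 to 8 separately, 299 genes passed in the same direction both times (6.75%), 158 higher (3.56%) and 141 lower (3.18%). Both comparisons used the same 2 pst3 arrays, so passing them is a filter. Of the 383 called genes, 287 also passed this filter in the same direction. Of all genes tested, 73.1% had the same sign against both prints. Both pst3 arrays lay above all 8 wild-type arrays for 559 genes (12.6%) and below all 8 for 445 genes (10%). They lay outside the wild-type range for all 188 genes called higher and for 190 of the 195 called lower. Lack of overlap in a called gene, given for single genes below, therefore adds nothing to its call. Called genes that were higher had a median wild-type level of 9.21, against 11.01 for those called lower and 10.1 for all genes. Net signal exceeded the empty limit on both pst3 arrays for 187 of the 188 genes called higher and for 75 of the 195 called lower. Of the named genes that fell, utp3, rrp9, faf1, esf1, rrp14, mak16, rpc11, atg6, leu2, hpt1, dea2, rec11, cut3 and cnp1 did not exceed it on replicate 1, so the sizes of their falls are not exact. No gene reached the scanner maximum on replicate 1 of the pst3 arrays and 121 did on replicate 2, among them cmt1, adh4, atd1, pgi1, dld1, arg12, ilv3 and obr1, whose rises are likewise not exact sizes.

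**Figure D1:**
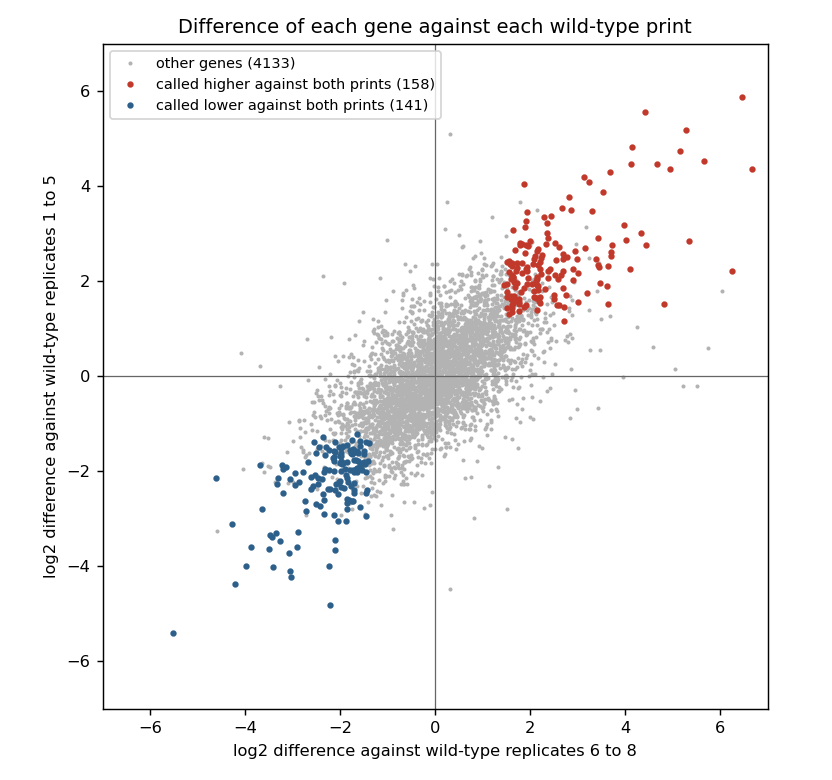
Each point is a gene, with its log2 difference (pst3 repressed minus wild type) against wild-type replicates 6 to 8 on the horizontal axis and against replicates 1 to 5 on the vertical axis. Red points are the 158 genes called higher against both prints, blue points the 141 called lower, and grey points all others tested. Most points lie to the lower left or upper right of the crossing lines, since 73.1% of genes had the same sign against both, and both axes share the pst3 arrays.

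With so few pst3 arrays the calls rested on having both. Without replicate 1 of the pst3 arrays 29 genes were called, and without replicate 2, 56. Of 132 named genes that were called, 8 kept their call without either array and in every alternative setting run on them. These were 28 settings, or 27 for rdp1, cut3 and hpt1, which a filter on dim probes removed from 1, and the print as a random block was not among them. The 8 genes were cmt1, SPCC70.08C, adh4, gdh2 and rdp1, which were higher, and rps1901, cut3 and hpt1, which were lower. The calls of the other named genes were lost without one or the other pst3 array.

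Some genes of ribosome assembly were called lower on the pst3 arrays. The SSU processome is the large particle that forms on the small-subunit part of the ribosomal RNA precursor around the U3 snoRNA. Of its 49 genes tested, 6 fell and 0 rose, against 4.4% and 4.24% of all genes. The median difference was -0.81, against -0.02 over all genes. With the print as a random block 0 of the 49 were called, with a median of -0.85. Against replicates 1 to 5 and 6 to 8 the medians were -0.86 and -0.67. Of the 6, 5 passed against both prints, and 35 of the 49 genes were lower against both prints while 5 were higher. Both pst3 arrays lay below every wild-type array for 18 of the 49 genes, against 10% of all genes, and above every one for 3, against 12.6%. The count was 0 without replicate 1 and 2 without replicate 2 of the pst3 arrays, while the medians were -0.87 and -0.84.

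The largest fall of this list was in utp3, which codes for a U3-associated protein. Its level was 8.02 and 9.32 on the pst3 arrays, against a lowest of 10.13, a median of 11.52 and a highest of 12.60 in wild type. Both pst3 values lay below all wild-type values, and the difference was -2.68 (SE 0.60, adjusted p = 0.0170). The gene pwp2 codes for another core U3-associated protein, known as Utp1. Its level was 9.36 and 10.02 on the pst3 arrays, against 10.81, 12.20 and 12.98 in wild type, again with no overlap (-2.32, SE 0.52, adjusted p = 0.0177). For rrp9, which codes for a U3 snoRNP protein, the pst3 arrays gave 7.49 and 8.86, against 9.27, 10.27 and 10.74 in wild type (-2.0, SE 0.46, adjusted p = 0.0196). The genes faf1 (-1.88), esf1 (-1.86) and utp8 (-1.68), all of small-subunit precursor processing, also fell without overlap. On replicate 1 of the pst3 arrays utp3, rrp9, faf1 and esf1 did not exceed empty spots, so the sizes of their falls are not exact, while pwp2 and utp8 did on both. The RNA helicase gene rok1 went the other way without passing, with 10.62 and 10.96 on the pst3 arrays, against 9.26, 9.53 and 10.15 in wild type (1.22, adjusted p = 0.0580).

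Of 55 assembly factors of the large subunit tested, 9 fell and 0 rose, against 4.4% and 4.24% of all genes. Against both prints 5 of the 55 fell, against 3.18% of all genes. With the print as a random block 3 fell. The median difference was -0.71, and -0.65 and -0.91 against the 2 wild-type prints. Both pst3 arrays lay below all wild-type arrays for 14 of them (10% of all genes) and above for 1 (12.6% of all genes). The count was 0 without either pst3 array in turn, while the medians were -0.75 without replicate 1 and -0.76 without replicate 2. The RNA helicase gene dbp2 had levels of 9.61 and 10.18 on the pst3 arrays, against 11.33, 13.08 and 14.37 in wild type, with no overlap (-3.08, SE 0.64, adjusted p = 0.0125). For rrp14 the pst3 arrays gave 8.54 and 8.84, against 10.46, 11.44 and 12.56 in wild type (-2.79, SE 0.49, adjusted p = 0.00538). For ebp2, which codes for a ribosomal RNA processing protein, they gave 9.24 and 9.62, against 10.84, 11.93 and 12.19 in wild type (-2.29, SE 0.43, adjusted p = 0.00778). The pst3 arrays were below wild type in all 3, with rrp14 under the empty limit on replicate 1. The GTPase gene nog1 (-1.65) and mak16 (-1.75), which codes for a nuclear protein, fell. For brx1 (-2.37) replicate 1 of the pst3 arrays, at 10.26, overlapped the lowest wild-type array at 10.23. The other called members were mrt4 (-1.97), nop12 (-1.90) and noc3 (-1.85).

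Of 12 snoRNP proteins, 1 fell, srp40, which codes for a chaperone of nucleolar transport (9.92 and 8.90 on the pst3 arrays, against 10.99, 11.45 and 12.76 in wild type, difference -2.26). The median of that list was -0.48. Fibrillarin (fib1), which methylates ribosomal RNA and marks the nucleolus, had 11.71 and 12.06 on the pst3 arrays, against 11.38, 14.82 and 15.58 in wild type. Its difference of -2.35 did not pass (SE 0.86, adjusted p = 0.113), and wild-type arrays themselves spanned a wide range. Of 12 RNA exosome genes none was called, with a median of -0.46. limma's test passed 0 of them at 0.05 after adjustment, and rrp4 had the smallest adjusted p (0.203, difference 0.82). Among genes left out on misplaced plates and put back, the exosome subunit gene rrp42 had a difference of -1.53.

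The RNA polymerase I list had the lowest median of all 47 lists, -0.83 over 11 genes, and -0.99 and -1.27 against the 2 wild-type prints. Without replicate 2 of the pst3 arrays its median was -0.63, above the SSU processome at -0.84 and large-subunit assembly at -0.76. Only 1 of the 11 was called, and it was lower. The gene rpa49, which codes for a subunit of the enzyme, had 10.43 and 9.78 on the pst3 arrays, against 10.97, 11.40 and 12.14 in wild type. Both pst3 values lay below wild type, with a difference of -1.37 close to the threshold (SE 0.39, adjusted p = 0.0477), and the call was lost in 14 of 28 alternative settings, among them both other normalizations, leaving out either pst3 array and leaving out any of 6 of the wild-type arrays. The largest subunit gene nuc1 had 9.92 and 10.54 on the pst3 arrays, against 10.64, 11.77 and 12.86 in wild type (-1.52, adjusted p = 0.0899). The initiation factor gene rrn3 had 10.28 and 10.23 on the pst3 arrays, against 10.32, 11.39 and 11.55 in wild type (-0.89, adjusted p = 0.211). In contrast rpa12, the gene of the RNA cleavage subunit, had 14.37 and 15.49 on the pst3 arrays, against 11.37, 12.23 and 15.38 in wild type (2.02, adjusted p = 0.229). Medians were -0.45 for 11 RNA polymerase II genes, with 0 called, and -0.44 for 15 RNA polymerase III genes, or -0.29 for the last without either pst3 array. In the RNA polymerase III list the subunit gene rpc34 rose (13.55 and 13.56 on the pst3 arrays, against 9.50, 11.06 and 11.60 in wild type, difference 2.73) and rpc11 fell by 2.04. The plate that holds rpc34 matched wild type least of those kept, as given below.

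**Figure D2:**
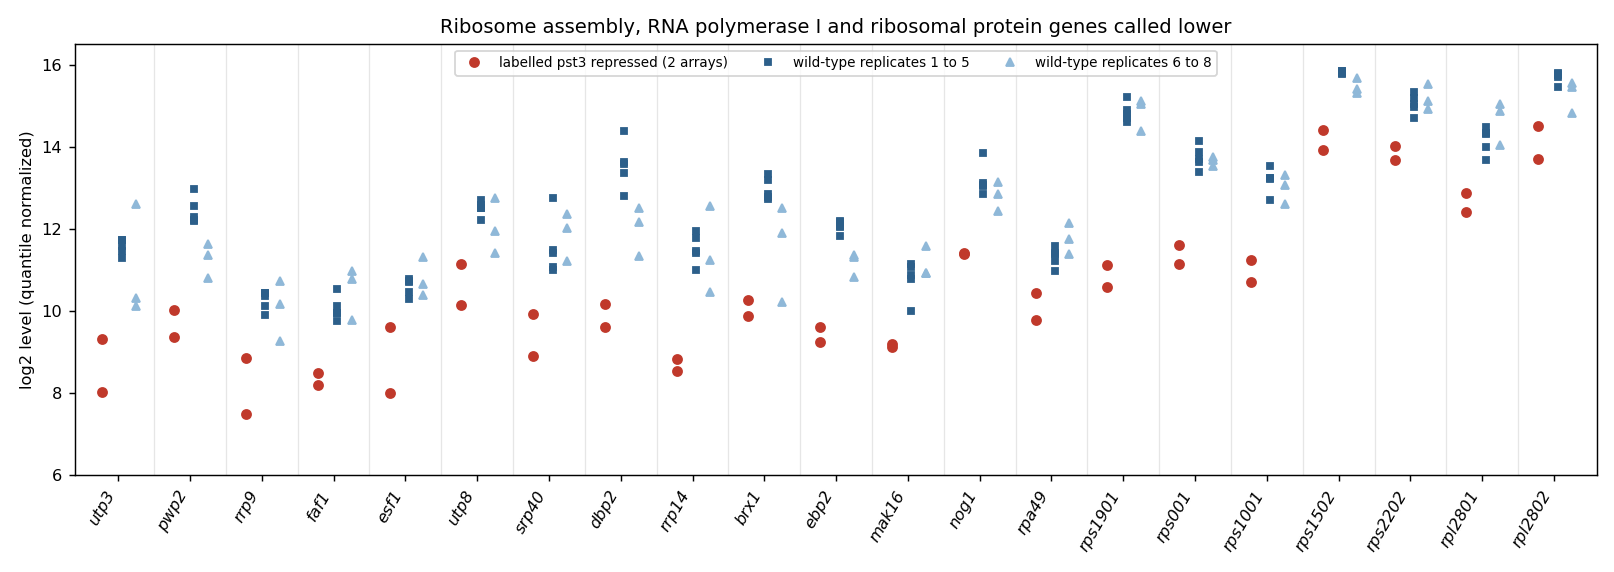
Log2 levels (quantile normalized) of the named genes of ribosome assembly, RNA polymerase I and ribosomal proteins called lower, 1 column per gene. Red circles are the 2 arrays labelled pst3 repressed, dark squares wild-type replicates 1 to 5 and light triangles replicates 6 to 8. The red circles lie below all wild-type points in every column except brx1, where 10.26 on a pst3 array overlapped 10.23 on a wild-type array. Such lack of overlap held for 190 of the 195 genes called lower, so it is not particular to these.

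Ribosomal protein genes did not move as a block. Of 55 small-subunit genes 5 fell and 0 rose (median difference -0.23), and of 61 large-subunit genes 2 fell and 0 rose (median -0.08). With the print as a random block 3 and 0 fell. Over all genes 4.4% fell and 4.24% rose in the main fit. Against both prints 3 small-subunit genes and 1 large-subunit gene fell, against 3.18% of all genes. The sign of these medians depended on the normalization. They were 0.12 and 0.24 with cyclic loess and -0.76 and -0.49 with median centring, for the small and the large subunit. The largest fall was in rps1901, 1 of 2 genes for the small-subunit protein eS19. Its level was 10.58 and 11.12 on the pst3 arrays, against 14.39, 14.85 and 15.22 in wild type, well below every wild-type array (-3.99, SE 0.37, adjusted p = 7.95e-05). Its partner rps1902 had 13.86 and 14.27 on the pst3 arrays, against 7.51, 14.27 and 15.20 in wild type, and was not called (0.54, SE 1.44, adjusted p = 0.866).

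In 4 more pairs 1 paralog was called and the other was not. The gene rps001, for protein uS2, had 11.15 and 11.62 on the pst3 arrays, against 13.39, 13.69 and 14.13 in wild type (-2.33, SE 0.35, adjusted p = 0.00265), while the difference of rps002 was -0.37 (adjusted p = 0.699). The gene rps1001, for eS10, had 10.72 and 11.23 on the pst3 arrays, against 12.60, 13.23 and 13.53 in wild type (-2.14, adjusted p = 0.00564), while rps1002 had -0.94 (adjusted p = 0.207). The genes rps1502 (-1.51) and rps2202 (-1.25, adjusted p = 0.0490) fell, while rps1501 (-0.94) and rps2201 (-0.80) were not called. Both genes for uL15 fell, rpl2801 (-1.69) and rpl2802 (-1.43). Spots reached the scanner maximum for rpl2802 on replicate 2 of the pst3 arrays and on 6 wild-type arrays, for rps1502 on 5 wild-type arrays, for rps2202 on 3, for rps1901 on 2 and for rpl2801 on 1, so these differences are not exact sizes. Whether the paralogs of a pair differ from each other was not tested. Paralogs have similar sequence and their probes may share signal. A spot named rpl7-3, which was not matched to a gene of the annotation, fell by 2.43.

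Many ribosomal protein promoters of fission yeast carry a HomolD box, which takes the place of a TATA box, and a HomolE box. The letters CAGTCACA (HomolD) and ACCCT 2 times in a row (HomolE) were searched on both strands of the 250 bases before the annotated start of each gene, in the RefSeq genome ASM294v3. HomolD letters were found for 101 of 4225 genes (2.39%) and HomolE letters for 50 (1.18%). Among ribosomal protein genes the HomolD letters stood before 33 of 55 genes of the small subunit (60%) and 36 of 61 of the large subunit (59%). All 7 ribosomal protein genes called lower had them, as did rpa49, the only one of 11 RNA polymerase I genes with a match. None of the 6 SSU processome genes or 9 large-subunit assembly genes called lower had either set of letters. The HomolD letters were before 11 of 185 genes called lower (5.95%) and 1 of 174 called higher (0.575%). Those 11 include the 7 ribosomal protein genes and rpa49, so the shares repeat the counts above. Most ribosomal protein genes with these letters were not called. A match describes the letters in this window and is not a measured site. The 110 bases before the start follow, on the gene's own strand, for rps1901 and its uncalled partner rps1902, for other ribosomal protein genes that fell, and for rpa49, with exact HomolD and HomolE letters of either orientation in capitals. In the order shown they lie at chrII:3818169-3818278 (plus strand), chrII:535232-535341 (plus strand), chrII:2778795-2778904 (plus strand), chrI:3020329-3020438 (minus strand), chrI:1512391-1512500 (minus strand), chrII:3196353-3196462 (plus strand), chrIII:656515-656624 (plus strand), chrI:3927280-3927389 (minus strand).
rps1901: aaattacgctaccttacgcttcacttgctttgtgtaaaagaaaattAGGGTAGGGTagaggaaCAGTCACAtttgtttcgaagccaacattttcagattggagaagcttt
rps1902: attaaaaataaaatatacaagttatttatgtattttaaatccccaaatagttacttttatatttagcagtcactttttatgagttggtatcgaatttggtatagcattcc
rps001: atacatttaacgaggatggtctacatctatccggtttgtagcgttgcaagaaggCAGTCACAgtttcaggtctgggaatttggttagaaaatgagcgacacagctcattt
rps1001: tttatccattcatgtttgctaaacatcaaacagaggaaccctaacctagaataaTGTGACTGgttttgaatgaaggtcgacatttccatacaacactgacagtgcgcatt
rps2202: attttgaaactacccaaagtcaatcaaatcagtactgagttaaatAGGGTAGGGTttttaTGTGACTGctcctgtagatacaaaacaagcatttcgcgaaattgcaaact
rpl2801: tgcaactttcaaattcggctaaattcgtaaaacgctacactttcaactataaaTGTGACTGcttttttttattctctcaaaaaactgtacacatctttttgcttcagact
rpl2802: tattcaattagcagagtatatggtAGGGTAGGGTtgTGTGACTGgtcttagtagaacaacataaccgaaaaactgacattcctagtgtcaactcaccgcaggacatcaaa
rpa49: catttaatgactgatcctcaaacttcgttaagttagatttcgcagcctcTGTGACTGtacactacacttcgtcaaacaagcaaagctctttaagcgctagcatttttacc
In rps1901 the HomolE letters stood just before the HomolD letters, as in rps2202 and rpl2802, while the shown stretch of rps1902 held no exact match to either.

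Of 41 cytosolic translation factor genes 2 fell, close to the 4.4% of all genes called lower (median -0.41). They were sce3, an initiation factor (12.24 and 11.62 on the pst3 arrays, against 13.37, 14.66 and 15.35 in wild type, difference -2.60), and tif211, the alpha subunit of eIF2 (-1.44). Of 32 aminoacyl-tRNA synthetase genes 2 were higher and 2 lower, against 4.24% and 4.4% of all genes. The 2 higher, vrs2 and dia4, did not pass against both prints. Their probes exceeded empty spots on 0 of wild-type replicates 1 to 5 and 1 of replicates 6 to 8. Of the 2 lower, msk1 lies in a plate row whose names are doubtful, as given below. Of 43 mitochondrial ribosomal protein genes mrp2 rose by 2.53 and mrpl28 fell by 2.73, with a median of 0.12, or 0.28 without replicate 2 of the pst3 arrays. Of 30 heat shock and chaperone genes 1 fell, the DNAJ-family gene mas5 (-1.64), without passing against both prints. The median of that list was -0.61, or -0.35 without replicate 1 of the pst3 arrays.

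The largest rises that passed every filter on signal, prints and wild-type range included genes of unrelated roles. The last filter kept only genes with both pst3 arrays outside the wild-type range, so lack of overlap here was fixed by the choice. The gene cmt1, annotated as a catechol O-methyltransferase, had 15.15 and 15.49 on the pst3 arrays, against 8.82, 10.11 and 11.01 in wild type. The pst3 values lay far above every wild-type array (5.21, SE 0.55, adjusted p = 0.000219), with the spot near the scanner maximum on replicate 2. SPCC70.08C, a methyltransferase gene, had 13.42 and 13.40 on the pst3 arrays, against 7.99, 8.76 and 9.78 in wild type (4.57, SE 0.47, adjusted p = 0.000219). SPBC1271.05C, a zinc finger protein gene, rose by 3.77 and the uncharacterized SPBC1271.08C by 3.42, next to SPBC1271.07C, which was higher by 4.07. The gene adh4 codes for an alcohol dehydrogenase. Its level was 14.68 and 14.52 on the pst3 arrays, against 10.18, 11.28 and 11.57 in wild type, without overlap (3.48, SE 0.43, adjusted p = 0.000468). Further rises were cfh2 (3.22), a regulator of chitin synthase, ysp2 (3.03), an aminopeptidase, urg1 (2.96), a gene named for its induction by uracil, SPAC57A7.05 (2.90), SPAC19G12.09 (2.87), a reductase, ncs1 (2.77), a calcium-binding protein, and ist1 (3.23), of endosomal sorting.

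**Figure D3:**
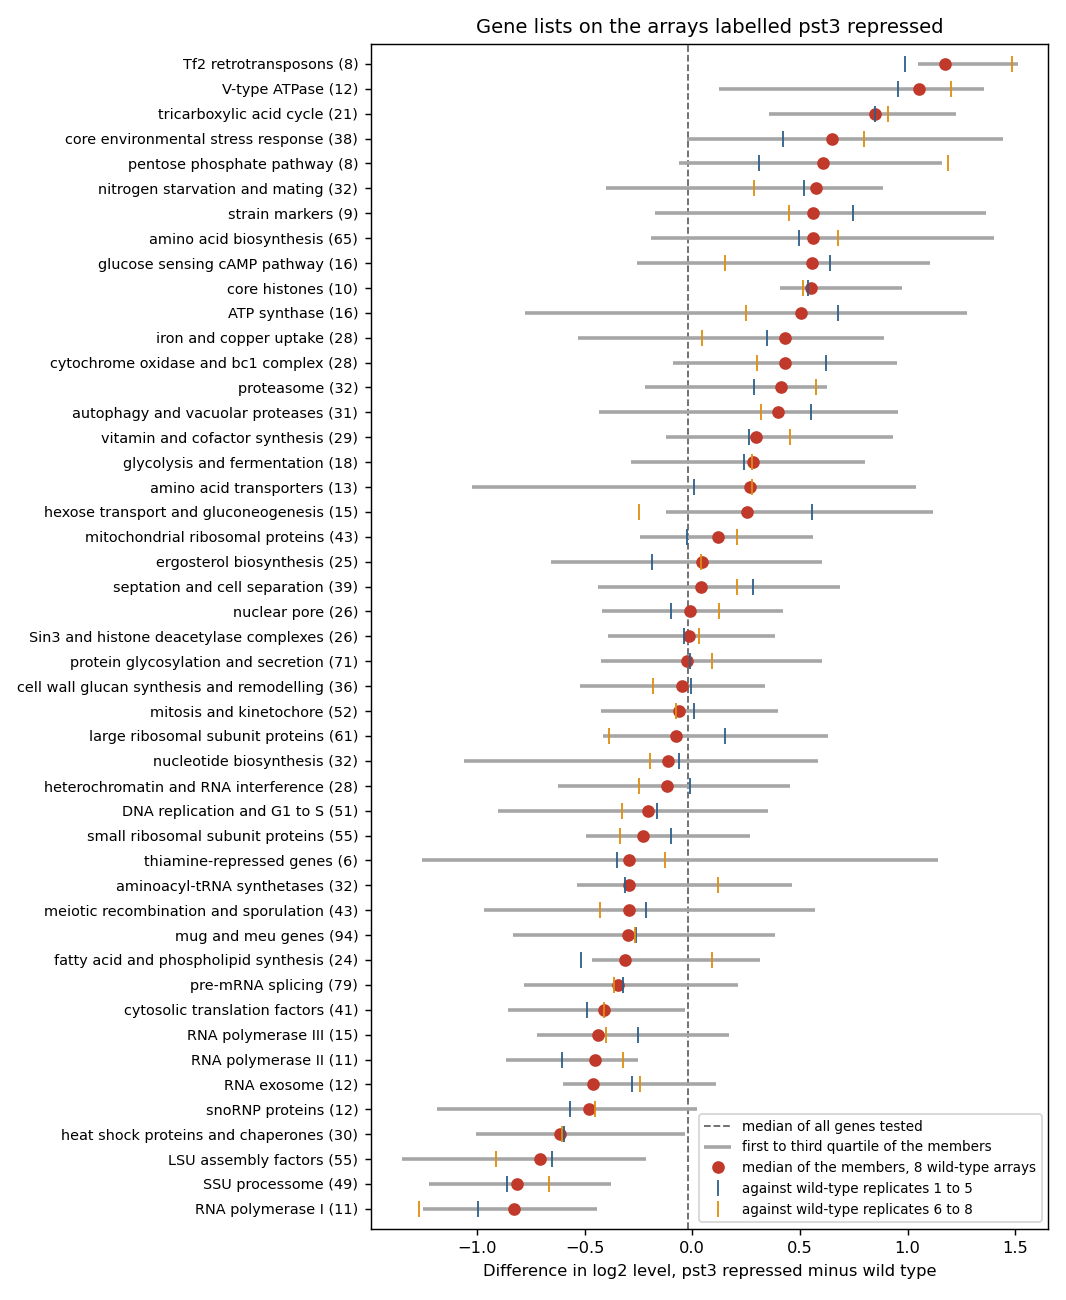
For each of 47 gene lists, with its number of genes tested in parentheses, the red point is the median log2 difference (pst3 repressed minus wild type) and the grey bar runs over the interquartile range of the members. Blue and orange ticks are the medians against wild-type replicates 1 to 5 and 6 to 8, and the dashed line is the median of all genes, -0.02. RNA polymerase I (-0.83), SSU processome (-0.81) and large-subunit assembly factors (-0.71) lie lowest, and Tf2 retrotransposons (1.17), V-type ATPase (1.05) and the tricarboxylic acid cycle (0.85) highest.

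A few genes of mitochondrial energy metabolism were called, most of them higher. Of 21 tricarboxylic acid cycle genes 3 rose and 0 fell, against 4.24% and 4.4% of all genes. Both counts were 0 when the print was a random block. Against both prints 2 rose, against 3.56% of all genes. The median difference was 0.85, and 17 genes had positive differences from both wild-type prints. Both pst3 arrays lay above all wild-type arrays for 8 of them (12.6% of all genes). Without replicate 2 of the pst3 arrays the median was 0.52, and without either array 0 members were called. The gene idh2, an isocitrate dehydrogenase subunit, had 12.58 on both pst3 arrays, against 10.04, 10.81 and 11.39 in wild type (1.82, SE 0.39, adjusted p = 0.0153). The citrate synthase gene cit1 had 12.88 and 12.84 on the pst3 arrays, against 11.45, 11.63 and 11.82 in wild type (1.23, SE 0.33, adjusted p = 0.0362). The gene dld1, a subunit shared by keto acid dehydrogenases, rose by 1.90. None of the 3 overlapped wild type. Among 28 genes of cytochrome oxidase and the bc1 complex 2 rose, cox18 (2.62) and cox8 (2.17). Among 16 of the ATP synthase inh1, its inhibitor, rose by 1.77 without passing against both prints, while the gamma subunit atp3 fell by 1.91. Those lists had medians of 0.43 and 0.50, or 0.19 and 0.34 without replicate 2 of the pst3 arrays.

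In glycolysis and fermentation 3 of 18 genes rose and 0 fell, against 4.24% and 4.4% of all genes. The list's median was 0.28, and -0.27 with median centring. With the print as a random block 2 rose. Besides adh4 the 3 were atd1, an aldehyde dehydrogenase (14.91 and 14.69 on the pst3 arrays, against 11.54, 12.54 and 12.98 in wild type, difference 2.29), and pgi1, glucose-6-phosphate isomerase (2.08, adjusted p = 0.0497). Of 15 genes of hexose transport and gluconeogenesis 2 rose and 0 fell. They were the high-affinity hexose transporter gene ght5 (2.43) and gut2, of glycerol use (2.19). That list's median was 0.26, but -0.25 against wild-type replicates 6 to 8. Abundant genes such as adh1 (0.39, adjusted p = 0.525) and the pyruvate kinase gene pyk1 (0.03, adjusted p = 0.977), added here after their values were seen, were not called. Neither was fbp1, of gluconeogenesis (0.83, adjusted p = 0.442).

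Of 31 genes for autophagy and vacuolar proteases 3 rose and 1 fell, against 4.24% and 4.4% of all genes. The median was 0.40, or 0.26 without replicate 1 and 0.25 without replicate 2 of the pst3 arrays. The serine protease gene isp6, known to be induced in nitrogen starvation, had 13.91 and 13.60 on the pst3 arrays, against 8.90, 10.88 and 11.65 in wild type, without overlap (3.11, SE 0.62, adjusted p = 0.0103). The protease gene psp3 rose by 2.30 and the mitophagy receptor gene atg43 by 1.91, while atg6 fell by 1.84. The V-type ATPase, which acidifies the vacuole, had a median of 1.05 over 12 genes, none of which was called. Its smallest adjusted p was 0.0553, for vma1 (13.07 and 12.78 on the pst3 arrays, against 11.20, 11.59 and 12.13 in wild type, difference 1.31), and 4 of the 12 lay above all wild-type arrays, against 12.6% of all genes. The vacuolar transporter genes SPAC2E12.03C (2.76) and fnx2 (1.88) rose among 13 amino acid transporters. The fnx2 probe exceeded empty spots on 2 of wild-type replicates 1 to 5 and 1 of replicates 6 to 8, so the size of its rise is not exact. Of 32 proteasome genes 1 fell, rpt3, and the median was 0.41.

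Amino acid synthesis had 7 of 65 genes higher and 3 lower, against 4.24% and 4.4% of all genes (median of the list 0.56). Both pst3 arrays lay above all wild-type arrays for 20 of the 65, against 12.6% of all genes. With the print as a random block 3 were higher and 1 lower. The gene gdh2, NAD-dependent glutamate dehydrogenase, had 13.24 and 12.80 on the pst3 arrays, against 7.80, 8.54 and 9.63 in wild type (4.35, SE 0.47, adjusted p = 0.000239). The argininosuccinate synthase gene arg12 rose by 2.37, his4 of histidine synthesis by 2.17 and ilv3 of branched-chain synthesis by 1.99. The leucine synthesis gene leu2 had 8.32 and 9.98 on the pst3 arrays, against 11.90, 12.92 and 14.38 in wild type, and fell by 3.78 (adjusted p = 0.00386), with replicate 1 not above empty spots. The phosphoserine phosphatase gene ser2 fell by 2.07. Without replicate 1 of the pst3 arrays 1 gene of the list was called, and without replicate 2, 4.

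Purine genes were called in both directions. Among those that recycle ready-made bases, 3 fell. The xanthine phosphoribosyltransferase gene hpt1 had 8.96 and 7.33 on the pst3 arrays, against 11.23, 11.77 and 12.89 in wild type (-3.70, SE 0.49, adjusted p = 0.000868), with replicate 1 not above empty spots. The adenine phosphoribosyltransferase gene apt1 had 11.01 and 10.92 on the pst3 arrays, against 12.19, 13.35 and 13.89 in wild type (-2.31, adjusted p = 0.00865), and the adenine deaminase gene dea2 fell by 2.61. The gene ade2, of AMP synthesis, rose (13.46 and 13.94 on the pst3 arrays, against 10.83, 11.35 and 12.04 in wild type, difference 2.33), as did the nucleoside diphosphate kinase gene ndk1 (1.68). The CTP synthase gene cts1 fell by 1.80. In all 3 of 32 nucleotide synthesis genes rose and 5 fell, against 4.24% and 4.4% of all genes (median of the list -0.11). With the print as a random block 1 rose and 3 fell. The grouping of genes that recycle bases was made after the values were seen.

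**Figure D4:**
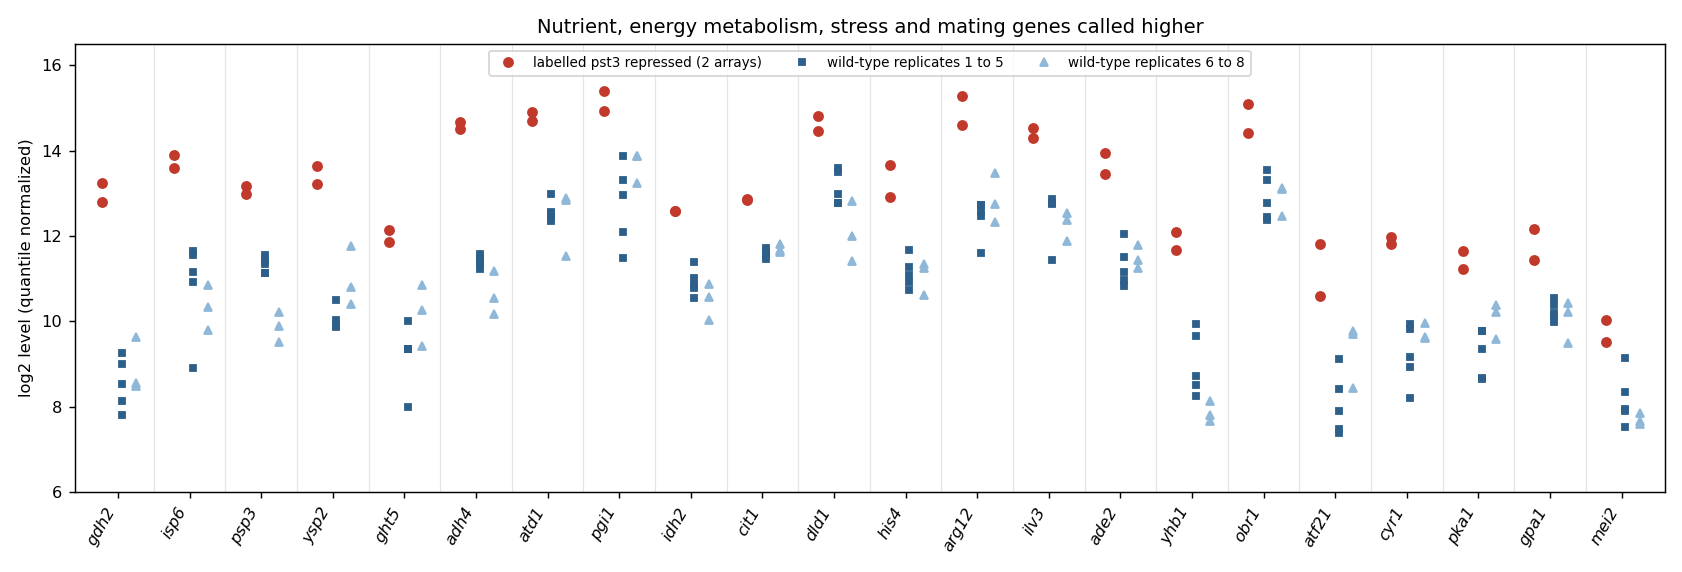
Log2 levels (quantile normalized) of genes called higher in energy metabolism, amino acid and nucleotide synthesis, stress and mating lists, 1 column per gene. Red circles are the 2 arrays labelled pst3 repressed, dark squares wild-type replicates 1 to 5 and light triangles replicates 6 to 8. The red circles lie above all 8 wild-type points in every column shown, for example 13.24 and 12.80 for gdh2 against a wild-type highest of 9.63. This held for all 188 genes called higher, so it is not particular to these.

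In the core environmental stress response, a set of genes that respond to many stresses in fission yeast, 6 of 38 rose and 1 fell. Over all genes 4.24% rose and 4.4% fell, and the median of the list was 0.65. With the print as a random block 2 rose and 0 fell. The nitric oxide dioxygenase gene yhb1 had 12.10 and 11.66 on the pst3 arrays, against 7.67, 8.38 and 9.94 in wild type (3.29, SE 0.58, adjusted p = 0.00538). The metallothionein gene zym1 (2.5), the transcription factor gene atf21 (2.68), the transporter gene caf5 (2.07) and obr1 (1.86) rose, and rds1 fell by 2.08. Probes of zym1 and atf21 exceeded empty spots on 2 of wild-type replicates 1 to 5 and 1 of replicates 6 to 8. The caf5 probe did so on 3 and 1, so the sizes of these rises are not exact. The catalase gene ctt1 (0.19, adjusted p = 0.866), the plasma membrane protein gene hsp9 (1.97, adjusted p = 0.155) and hsp16 (1.22, adjusted p = 0.239), which are known to be strongly induced by stress, were not called and were added after their values were seen. Without replicate 1 of the pst3 arrays 0 genes of the list were called, and without replicate 2, 1. The letters TGACGT, the core of the site for Atf1-type factors, were found on either strand before 232 of 4225 genes (5.49%). In the list they stood before 8 of the 38 genes (21.1%), 0 of the 6 that rose and the 1 that fell, rds1.

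Of 32 nitrogen starvation and mating genes 3 rose and 0 fell, against 4.24% and 4.4% of all genes (median of the list 0.57). With the print as a random block 1 rose and 0 fell. Against both prints 2 rose. Besides isp6 the 3 were gpa1, the G protein subunit of pheromone sensing (12.18 and 11.44 on the pst3 arrays, against 9.50, 10.20 and 10.54 in wild type, difference 1.63), and mei2, the RNA-binding protein that starts meiosis (9.51 and 10.04 on the pst3 arrays, against 7.53, 7.88 and 9.15 in wild type, difference 1.77). The mei2 probe exceeded empty spots on 2 of wild-type replicates 1 to 5 and 1 of replicates 6 to 8, so the size of its rise is not exact. With its name put back, ste11, the transcription factor gene that turns on mating genes, had 12.86 and 12.62 on the pst3 arrays, against 9.29, 10.35 and 11.01 in wild type (2.55, adjusted p = 0.00607), whereas the spots under its deposited name gave -0.22. The mating genes fus1 (0.76, adjusted p = 0.432) and ste6 (0.38, adjusted p = 0.769), added after their values were seen, were not called, and ste6 lies in a row of plate 39 whose names are doubtful. Of 16 genes of the glucose-sensing cAMP pathway 2 rose and 1 fell, against 4.24% and 4.4% of all genes. Against both prints 1 was higher and 1 lower. The list's median was 0.56, but 0.15 against wild-type replicates 6 to 8. Adenylate cyclase (cyr1, 2.49) and the kinase it activates (pka1, 1.90) rose. The gene git1 had 6.83 and 6.93 on the pst3 arrays, against 9.37, 10.41 and 11.33 in wild type. The git1 probe was not above empty spots on either pst3 array, and against that limit it was at least 6.00-fold lower (limma adjusted p = 0.00204). Escherichia coli controls lay above the limit on replicate 2 of the pst3 arrays, so against them the bound would be smaller. Of 43 later meiotic genes 4 were higher and 3 lower, against 4.24% and 4.4% of all genes. The horsetail-movement gene mcp6, above empty spots on 2 of 8 wild-type arrays, rose by 3.26 and moa1, of meiosis I kinetochores, by 1.89, while rec11, a meiotic cohesin, fell by 2.54.

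Of 28 genes in the iron and copper list 2 fell, both of uptake, and 1 rose, against 4.4% and 4.24% of all genes. The rise was in the metallothionein gene zym1 (2.5), whose size is not exact, as given above. The gene str1, an iron-siderophore transporter, had 10.30 and 8.51 on the pst3 arrays, against 11.98, 12.84 and 13.46 in wild type (-3.39, SE 0.52, adjusted p = 0.00288). The copper transporter gene ctr4 had 9.85 and 9.28 on the pst3 arrays, against 11.26, 11.98 and 12.97 in wild type (-2.51, adjusted p = 0.00618). Neither overlapped wild type. The median of the list was 0.43.

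In chromatin, 2 of 26 genes of Sin3 and histone deacetylase complexes rose and 1 fell, against 4.24% and 4.4% of all genes. The median of the list was -0.01. The gene rxt2, a subunit of Clr6 complexes, had 12.27 and 12.11 on the pst3 arrays, against 8.24, 9.46 and 10.72 in wild type (2.77, SE 0.58, adjusted p = 0.0125). The sirtuin gene hst2 had 10.72 and 10.67 on the pst3 arrays, against 7.78, 8.83 and 9.36 in wild type (1.96, adjusted p = 0.0223). The deacetylase gene clr3 had 10.36 and 10.01 on the pst3 arrays, against 11.31, 11.74 and 12.43 in wild type (-1.61, adjusted p = 0.0288). All 3 lay outside the wild-type range on both pst3 arrays. The RNA interference gene rdp1, an RNA-directed RNA polymerase, had 11.80 and 12.38 on the pst3 arrays, against 6.76, 7.34 and 8.84 in wild type. Its probe exceeded empty spots on 0 of the 8 wild-type arrays, which makes it at least 13.1-fold higher (limma adjusted p = 0.000232). It was the only one of 28 heterochromatin and RNA interference genes called.

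Of 8 Tf2 retrotransposons tested, 7 lay above all wild-type arrays on both pst3 arrays, against 12.6% of all genes, and the median was 1.17. Tf2-3 was called, close to the threshold (12.50 and 12.28 on the pst3 arrays, against 9.03, 10.69 and 11.30 in wild type, difference 1.96, adjusted p = 0.0491), and no element was called without either pst3 array in turn, nor when the print was a random block. No element passed against both prints. The elements are near-identical copies, so their probes can share signal. The centromeric histone gene cnp1 fell by 1.72, without passing against both prints, among 10 histone genes, whose median was 0.55. In mitosis the condensin gene cut3 had 7.94 and 7.51 on the pst3 arrays, against 10.46, 11.21 and 11.74 in wild type (-3.40, SE 0.41, adjusted p = 0.000419), and its probe was above empty spots on replicate 2 of the pst3 arrays alone. The gene nuc2, of the anaphase-promoting complex, was at least 4.74-fold lower, with the probe not above empty spots on either pst3 array. Among such bounds were also rpt3, at least 9.32-fold lower, and pdx3, of vitamin B6 metabolism, at least 7.20-fold lower. Like that of git1, these bounds for nuc2, rpt3 and pdx3 hold against empty spots. They would be smaller against the Escherichia coli controls of replicate 2 of the pst3 arrays.

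Genes that thiamine represses were read beside pst3 because an nmt promoter drives it in this strain. Native nmt1 had 9.26 and 9.95 on the pst3 arrays, against 7.60, 8.13 and 9.08 in wild type, above the wild-type range without passing (1.38, adjusted p = 0.0665). The thiazole synthesis gene thi2 rose (1.89) without passing against both prints. Its wild-type level exceeded empty spots on 1 of 8 arrays, so the size of its rise is not exact. The acid phosphatase gene pho4 fell by 1.61. The median over 6 thiamine-repressed genes was -0.29, or -0.58 without replicate 1 and 0.26 without replicate 2 of the pst3 arrays. The genes thi20 (-1.96) and thi201 (-2.63) of thiamine synthesis, which are outside that list and were picked after their values were seen, fell and are neighbours of each other on the chromosome and of dbp2. Of 9 genes often used as strain markers 0 were called with limma (median 0.56, or 0.07 without replicate 2 of the pst3 arrays). His3 had the smallest adjusted p (0.0656), with 13.34 and 13.27 on the pst3 arrays, against 11.02, 11.98 and 12.70 in wild type.

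Part of the spots did not carry the genes their names give. Each 96-well plate of probes was compared between the print of the pst3 arrays and wild type, by the correlation over genes of mean levels. Of 50 plates compared, 3 matched poorly under their deposited names. Plates 5 and 6 gave 0.0725 and 0.108, and after exchange of the one for the other 0.687 and 0.708. Plate 30 gave 0.108 and, turned end for end, 0.644. The other plates had a median of 0.706 and a lowest value of 0.436, on plate 39. The corrected positions were found from these same levels, so a better match after the move is partly built in.

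**Figure D5:**
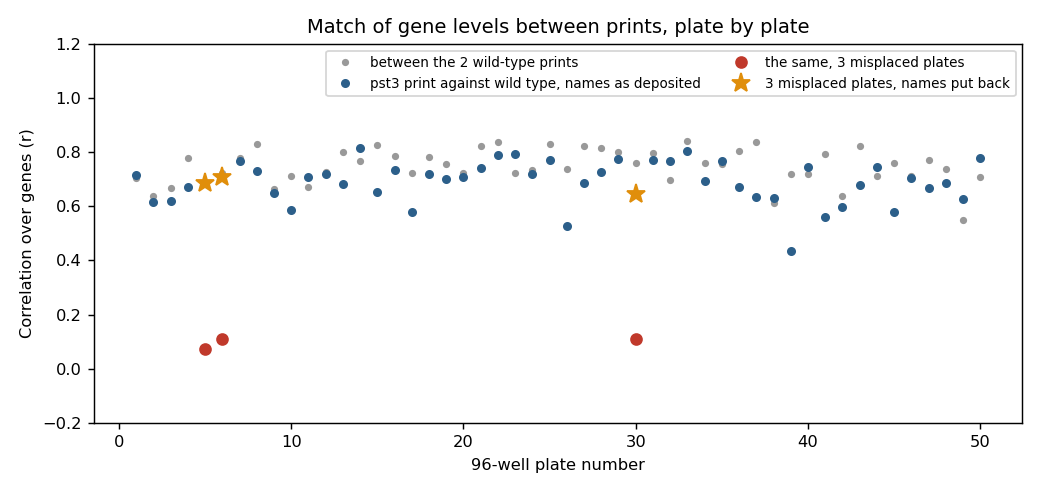
Correlation over genes (r) of log2 levels, by 96-well plate number. Grey points compare the wild-type prints with each other, blue points the print of the pst3 arrays with wild type under deposited names, red points the same for the 3 misplaced plates, and orange stars those plates with names put back. The red points lie at 0.0725 to 0.108 and the stars at 0.644 to 0.708, among the other plates.

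The names on those plates decide several large differences. Under deposited names 94 of 284 were called (33.1%), against 21 of 280 after they were put back (7.5%), beside 8.64% of other genes. The new positions were chosen by their match to wild type, so a lower share of calls after the move is also partly built in. The cell wall gene gas1 shows the size of the change. Under its deposited name the difference was 6.20, while the spots that match it after the turn gave 9.40 and 8.56 on the pst3 arrays, against 7.92, 8.53 and 9.97 in wild type (0.21, adjusted p = 0.863). The glutaredoxin gene grx1 had 3.29 under its deposited name and 1.13 put back (adjusted p = 0.197). The largest fall after the move was in ilv5, of branched-chain amino acid synthesis, with 9.28 and 9.86 on the pst3 arrays, against 15.15, 15.47 and 15.64 in wild type (-5.86, SE 0.35, adjusted p = 1.02e-06). SPBC12C2.01C (-4.66) and SPBC21D10.08C (-4.18) also remained lower after the move. None of these genes entered the counts above.

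Plate 39 was kept, and it had the highest share of called genes of the 48 plates with at least 20 genes tested, 19.6%, against a lowest of 3.3%. Within it, rows 4, 5 and 6 matched wild type with correlations of 0.0662, 0.0229 and -0.0499, against 0.583 to 0.71 in its other rows. Named genes in those rows were nup60 in row 4, ist1 in row 5, and msk1, trs130 and ste6 in row 6, so their identity is doubtful. In rows that matched lay gut2 and cox18, pps1 and rpc34, and adg3. Without this plate 339 genes were called in all. Medians of single plates differed between the pst3 arrays and wild type by -0.837 to 0.576, and the wild-type prints differed from each other by -0.737 to 0.532. With each plate's median removed 359 genes were called, 304 of them shared with the 383 above. The SSU processome then had a median of -0.90, large-subunit assembly factors -0.80, RNA polymerase I -0.93 and the tricarboxylic acid cycle 0.62.

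Called genes lay on all chromosomes, in unequal shares. On chromosome I 4.29% of genes were higher and 3.59% lower. On chromosome II 43 of 1387 were higher (3.1%) and 88 lower (6.34%), and on chromosome III 45 of 832 were higher (5.41%) and 25 lower (3%). Near the ends of chromosomes I and II, up to 100 kb in, 71 genes were tested. Of these 6 were higher and 2 lower, against 4.24% and 4.4% of all genes. The median difference of the 71 was 0.01. Among 3848 pairs of neighbouring genes both were higher in 14 and both lower in 21, for example inh1 and put1, the proline dehydrogenase gene, which were higher. The number of such pairs to expect by chance was not worked out. Shares also differed between plates, and position on a chromosome was not separated from position on the plates.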

How the data were processed

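RNA was hybridised to spotted arrays of open reading frame probes. The deposited scanner files give, per the file headers, a median signal intensity and a median background intensity per spot, for 1 channel of each pst3 array and for 1 or both channels of wild-type arrays, where both were labelled wild type. Per the labels, expression profiling followed a published protocol. Which scanner, image software or filters were used is not given in the sources used for this work. Spots were background-corrected with normexp (offset 50), but not in channels where 90% or more of the background values were 0. Control, empty and missing spots were then left out, spot sets averaged, channels quantile normalized on the log2 scale and channels of an array averaged. No ratio could be formed within a pst3 array.

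limma's lmFit and eBayes were fitted over all genes (2 against 8 arrays, two-sided, Benjamini-Hochberg adjustment, threshold 0.05), and again against wild-type replicates 1 to 5 and 6 to 8. Differences are pst3 repressed minus wild type. Names on 3 misplaced plates were left out, chosen after seeing the data. Of 5015 probe names 4755 were matched to RefSeq ASM294v3, whose genome gave the promoter sequences. A bound of the form "at least N-fold" uses, where a probe was not above empty spots on any array of a group, the higher of its own level and that of the dimmest probe above empty spots on each array. Such a bound holds against empty spots only, and on replicate 2 of the pst3 arrays Escherichia coli controls were brighter than these.

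Named genes were pst3, pst1, pst2 and clr6, and up to 6 called members of each list with the same sign against both wild-type prints. A list with no such member gave the one with the smallest p. Also named were the 15 largest rises and 15 largest falls called against both prints with signal above empty spots. These also had to have both pst3 arrays outside the range of every wild-type array, so their lack of overlap was fixed by the choice. The members, lists and rule were chosen with earlier results of these data known. Lists are described by counts and medians, without a test. The fits were also run on simulated data with no effect of the pst3 print, so that run says nothing on such an effect. The number of arrays limits the precision. Alternatives were other background corrections and normalizations, filters on dim probes, single spot sets, array weights, robust eBayes, leaving out each array, single prints, the print as a random block, and settings on plates. Replicate numbers follow accession order and pair nothing. Analyses used R 4.3.3, limma 3.58.1 and Python 3.11.15.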

Additional observations from a re-analysis of the deposited data

Results flagged for a closer look

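Among the 8 wild-type arrays, 13 of 141 named genes and 4 of 48 list medians had 1 array that lay far from the rest by Dixon's test, which chance alone gives in about 1 in 20 groups. Pst3 arrays, with n = 2, could not be tested this way. Wild-type replicate 3 was lowest for clr6 (7.79), mug122 (8.80) and prp10 (7.77) and highest for fnx2 (8.98). Wild-type replicate 7 was lowest for ask2 (13.8), brx1 (10.23), atd1 (11.54) and erg27 (9.63) and highest for hpt1 (12.89) and pho4 (12.59). Replicate 1 was lowest for cfh2 (7.99), replicate 6 highest for esf1 (11.32) and replicate 8 lowest for rpl2802 (14.83). Median levels of the RNA exosome (9.37) and the core histones (11.56) were lowest on replicate 3, and those of cytochrome oxidase and the bc1 complex (10.2) and of iron and copper uptake (9.95) on replicate 1.

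Control spots outside the comparison carried signal. On replicate 1 of the pst3 arrays the brightest Escherichia coli probe had a median net signal of 654.2, below the 844.7 of the empty spots, and on replicate 2 it had 954.5, above the 4.5 of the empty spots. Luciferase control probes had a median net signal of 851.8 on replicate 1 and 10002.5 on replicate 2, above the empty spots on both. On replicate 2, 61 of the 195 genes called lower lay below 954.5, so a level under it cannot be told from that control.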

How the results depend on the processing

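Called genes numbered 166 with median centring (123 against both prints), 242 among genes above empty spots on both pst3 arrays (175 higher and 67 lower), 957 with array weights (498 against both prints), 655 against wild-type replicates 1 to 5 alone, 783 against 6 to 8 alone, and 581 without wild-type replicates 1 and 3 (482 against both prints). Fitted with the print as a random block, 123 were called, although an effect of the pst3 print cannot be removed this way, 69 higher and 54 lower. With cyclic loess 196 rose and 136 fell. Leaving out 1 array gave 29 to 486 calls, and 41 to 389 against both prints; the lowest came without pst3 replicate 1, and 83 passed against both prints without pst3 replicate 2 and 144 without wild-type replicate 8. No paired analysis was possible because replicate numbers follow accession order.

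Medians of 2 lists moved with cyclic loess and with the empty-spot filter on the pst3 arrays, the SSU processome to -0.65 and -0.67 and large-subunit assembly to -0.45 and -0.57. Amino acid biosynthesis moved to 0.76, 0.71 and, with misplaced names kept, 0.45. With cyclic loess heat shock proteins had -0.30 and strain markers 0.84. Against wild-type replicates 6 to 8 alone the medians were -0.67 for the SSU processome, -0.91 for large-subunit assembly, -1.27 for RNA polymerase I, 1.19 for the pentose phosphate pathway, 0.68 for amino acid biosynthesis, 0.15 for the cAMP pathway, 0.29 for nitrogen starvation and mating and 1.48 for Tf2. The cAMP pathway had 0.36 on the second spot set and 0.30 without wild-type replicates 1 and 3, and the tricarboxylic acid cycle 0.62 with plate medians removed. With 1 array left out, ranges were -0.76 to -0.56 for large-subunit assembly, 0.51 to 0.89 for stress, -0.65 to -0.35 for heat shock, 0.072 to 0.77 for strain markers and 0.52 to 0.92 for the tricarboxylic acid cycle.

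Signs turned for 3 named genes, none of them called. The difference of pst2 was 0.11 without background correction, 0.011 with subtraction, 0.0088 with an offset of 16, 0.13 on the second spot set, 0.63 against wild-type replicates 6 to 8, 0.21 without replicates 1 and 3, and -0.80 to 0.80 with 1 array left out. That of pst3 was 0.066 with cyclic loess, 0.046 on the first spot set, 0.0080 with array weights, 0.12 against replicates 1 to 5, 0.54 with plate medians removed, and -0.13 to 0.049 with 1 array left out. That of clr6 was 0.055 with plate medians removed and -0.85 to 0.043 with 1 array left out. The causes were not tested. No called named gene changed sign. The settings that removed wild-type replicates 1 and 3, put names back, removed plate medians or dropped plate 39 were chosen after seeing the data. The authors' value tables were not run, because their row numbers pair with no gene names here.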

Other observations

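Lists further from growth and metabolism held few called genes, with shares near or below those of all genes (4.24% higher, 4.4% lower). In pre-mRNA splicing 2 of 79 genes fell and 1 rose (median -0.34), and none of the 79 passed against both prints. The gene prp10, a U2 snRNP protein of branch-site recognition, had 7.58 and 7.03 on the pst3 arrays, against a lowest of 7.77, a median of 10.41 and a highest of 11.36 in wild type (-2.85), and on replicate 3 of wild type it was nearly as low. Of U1 snRNP genes prp39 was lower (-2.08) and usp101 higher (1.49). In DNA replication 2 of 51 fell and 1 rose (median -0.21). The gene res1, of the MBF factor that switches on genes at the start of S phase, had 8.68 and 9.15 on the pst3 arrays, against 10.30, 11.26 and 11.81 in wild type (-2.30), while psf1, of the GINS replication complex, rose by 2.10. No nuclear pore gene was called with limma (26 genes, median -0.01), and of 39 septation genes 1 fell (adg3, -1.34), without passing against both prints.

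Membrane and cofactor genes mostly stayed uncalled. Of 24 fatty acid and phospholipid genes 2 rose, psd2, which makes phosphatidylethanolamine (11.73 and 11.43 on the pst3 arrays, against 7.45, 9.02 and 9.68 in wild type, difference 2.82), and pps1, which makes its precursor phosphatidylserine (2.55). Those 2 enzymes act one after the other, yet the list's median was -0.31. In ergosterol synthesis erg27 fell by 2.05 and the sterol transfer gene osh3 rose by 1.90. Riboflavin synthase (rib5) rose by 2.02 and coq6, of ubiquinone synthesis, fell by 1.77. Of 71 glycosylation and secretion genes gpi10, of GPI anchor synthesis, rose by 2.45 and alg12, of N-glycan synthesis, fell by 2.51 (adjusted p = 0.0498). The fall of alg12 did not pass against both prints.

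Genes named mug or meu, found in screens for transcripts of meiosis, were called about as often as all genes, with 4 of 94 higher and 3 lower (median -0.30). The gene mug122 had 12.42 and 12.23 on the pst3 arrays, against 8.80, 9.76 and 9.93 in wild type (2.68, SE 0.39, adjusted p = 0.00192). The genes mug151 (3.39) and mug45 (1.87) rose, with mug45 above empty spots on 1 of 8 wild-type arrays, while mug153 (-1.72) and meu43 (-1.76) fell. On replicate 1 of the pst3 arrays prp10, prp39, res1, erg27, coq6, alg12, mug153 and meu43 did not exceed empty spots, so the sizes of those falls are not exact. The mug33 probe was not above empty spots on either pst3 array. These calls, like most named ones, were lost without one of the pst3 arrays.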
